A study of Danio rerio with 8 samples.

Results

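In zebrafish embryos exposed to the KT09 extract, 8 genes of the p53 stress response were followed: mdm2, mdm4, cdkn1a, ccng1, phlda3, gadd45aa, gadd45ba and gadd45bb. They were chosen by symbol, as 8 of the 32520 genes in the deposited table, and each symbol had a single row. The gene encoding p53 itself is not among them and was not analysed here. The treated group holds 4 pools of AB strain embryos given an ethanolic stem extract of Mahonia bealei (KT09) at 100 µg/ml, and the control group 4 pools kept in E3 medium with 0.5% DMSO, the solvent of the stock solutions. The DMSO level of the treated pools is not given in the sources used here. Treatment started at 2 hpf (hours post fertilization), with 25 embryos per well, and RNA was taken at 8 hpf from pools of 75 whole embryos with their yolk. That hour is the one in the labels and in the results of the study, whose discussion names a later hour for the same RNA. The extract is a mixture of compounds at a dose that delayed epiboly, in which the blastoderm thins and comes to enclose the yolk, so treatment and developmental stage cannot be told apart. The library names given for replicate 4 of both groups look like those of the other group, while titles and treatment fields give the grouping used here.

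The protein p53 is a transcription factor that is kept scarce in unstressed cells, because the ubiquitin ligase Mdm2 marks it for destruction. When DNA is damaged or ribosome assembly is disturbed, p53 accumulates and raises genes that halt the cell cycle, repair DNA or start cell death. One of these genes is mdm2 itself, which closes a feedback loop, and zebrafish embryos that lack Mdm2 die through p53. Several of these targets, the gadd45 genes above all, also answer to other signals such as stress kinases.

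The values are means of normalised read counts over the pools of a group, as deposited. No spread between pools is given, and no test between the groups was made here. A gene is described as higher or lower past 1.5-fold where the ratio of the treated to the control mean passes that fold and the larger mean is at least 10. Beside most ratios stands a 95% interval computed from 4 times each mean, taken as the number of normalised reads in a group. It covers counting error only and leaves out variation between pools, so it is too narrow for a comparison of conditions. The smallest steps of the means are single reads, and the relative library depth they give ran from 0.980 to 1.16 in treated and from 0.820 to 1.14 in control pools. The group means add up to 1.69e+07 in treated and 1.62e+07 in control embryos.

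Of the 8 genes, 5 had a mean more than 1.5-fold higher in treated embryos, namely ccng1, gadd45aa, gadd45bb, gadd45ba and mdm2, and 0 were lower past that fold. Among all 16534 genes that reached a mean of 10 in either group, 15.3% were higher and 16.3% lower past 1.5-fold. All 8 genes reached a mean of 10 in both groups. The genes were picked with earlier results of these data known, so their count of 5 (62.5%) is a description. The median log2 ratio of the 8 genes was 0.71, beside 0.01 over the 16534 genes. The whole counting interval lay above 1.5-fold for each of the 5 higher genes, below 1 for mdm4, and held 1 for cdkn1a and phlda3.

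**Figure D1:**
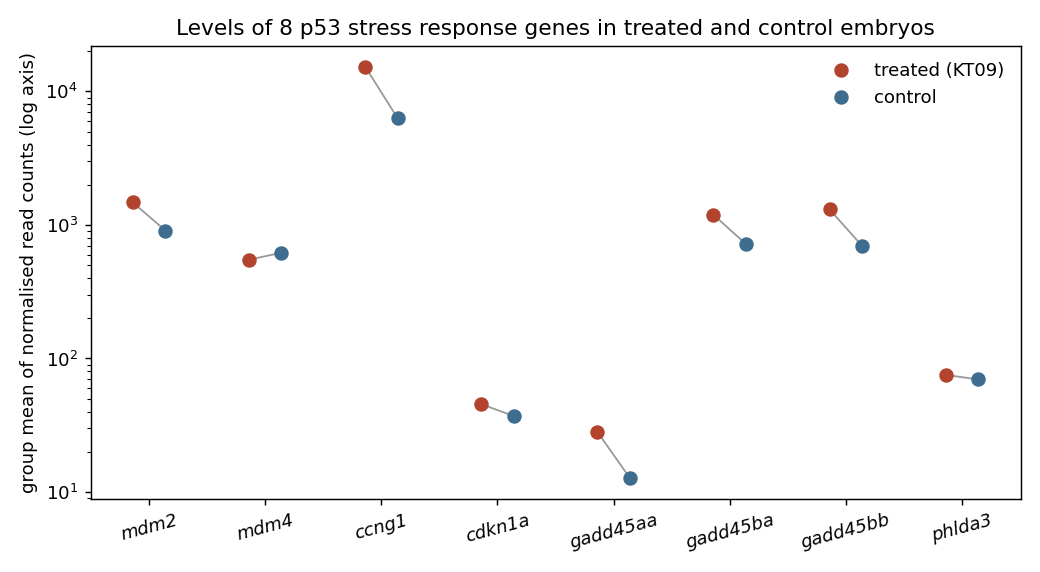
Group means of normalised read counts (log axis) for the 8 genes, with treated embryos in red left of control embryos in blue and a line joining the means of a gene. There are no error bars because only means over a group are given, without values per pool. The line slopes down from treated to control for every gene but mdm4, and most steeply for ccng1 (15360 in treated and 6307 in control embryos) and gadd45aa (28.2 in treated and 12.7 in control embryos); heights of different genes also depend on transcript length.

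The Mdm pair restrains p53, and its genes differed in direction. The mdm2 gene (ENSDARG00000033443) had a mean of 1474 normalised reads in treated and 908 in control embryos. This is a 1.62-fold higher mean in treated embryos (counting interval 1.56 to 1.69, log2 ratio 0.70), and 12.3% of all genes tested had a higher ratio. Mdm4, a relative of Mdm2 that holds back the activity of p53 rather than its amount, is encoded by mdm4 (ENSDARG00000057513), whose mean was 549 in treated and 619 in control embryos. Its ratio of 0.888 (counting interval 0.838 to 0.941) stayed inside 1.5-fold. The mean of mdm2 was 2.68 times that of mdm4 in treated and 1.47 times in control embryos, so the balance of the pair differed 1.83-fold between the groups (counting interval 1.70 to 1.96).

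Around this pair, the other 7 listed regulators of p53 all stayed within 1.5-fold. They were the phosphatase genes ppm1da and ppm1db, the deubiquitinase gene usp7 and the ubiquitin ligase genes rchy1, cop1, trim24 and huwe1. Their log2 ratios ran between -0.40 for trim24 and 0.38 for rchy1, with cop1 at -0.25. Their median of 0.02 was close to that of all genes tested. Of the 9 listed genes that restrain p53, mdm2 alone (11.1%) was higher past the fold and 0 were lower. Among all genes tested, 15.3% were higher and 16.3% lower.

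Cyclin G1, whose mammalian form brings a phosphatase to Mdm2, had the highest ratio of the 8 genes. The ccng1 gene (ENSDARG00000076667) had a mean of 15360 normalised reads in treated and 6307 in control embryos, 2.44-fold higher (counting interval 2.40 to 2.47, log2 ratio 1.28). Only 4.58% of all genes tested had a higher ratio. Of the summed means of all genes, ccng1 made up 0.0908% in treated and 0.0390% in control embryos. Its paralog ccng2, whose product slows the cell cycle, was not among the 8 genes and had a mean of 711 in treated and 366 in control embryos, 1.94-fold higher (1.82 to 2.07).

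The best known brake of the p53 response, cdkn1a (ENSDARG00000076554), was not past 1.5-fold. It encodes p21, an inhibitor of cyclin-dependent kinases, and had a mean of 45.5 in treated and 37.1 in control embryos, which is 182 normalised reads over the treated and 148 over the control pools. Its ratio of 1.23 has a counting interval of 0.984 to 1.54, which holds both 1 and 1.5-fold and leaves out variation between pools. The ratio of ccng1 to cdkn1a was 1.98 times as high in treated as in control embryos (counting interval 1.60 to 2.47). In the rest of its family, cdkn1ba, which encodes a p27 protein, was lower past 1.5-fold, at 210 in treated and 324 in control embryos (ratio 0.648, interval 0.594 to 0.707). The 4 genes cdkn1bb, cdkn1ca, cdkn1cb and cdkn1d had log2 ratios of 0.25, -0.32, 0.16 and 0.00.

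The list of cell cycle brakes held 14 genes. Past 1.5-fold, 3 (21.4%) were higher and 1 (7.14%) lower, beside 15.3% and 16.3% of all genes tested. Without ccng1 and cdkn1a, 2 of 12 (16.7%) were higher and 1 (8.33%) lower. Besides ccng1 and ccng2, the third higher gene was plk3, a polo-like kinase of the stress response, at 2176 in treated and 1340 in control embryos (1.62-fold, interval 1.57 to 1.68). The antiproliferative target btg2 had a log2 ratio of 0.29 and its relative btg1 of 0.12. The median of the 12 genes other than ccng1 and cdkn1a was 0.06.

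Gadd45 proteins are small stress sensors that in mammals switch on the kinase MAP3K4 and bind cell cycle proteins. Both gadd45b paralogs were higher in treated embryos. The gadd45bb gene (ENSDARG00000013576) had a mean of 1306 in treated and 697 in control embryos, 1.87-fold higher (counting interval 1.79 to 1.96, log2 ratio 0.91). The gadd45ba gene (ENSDARG00000027744) had 1191 in treated and 718 in control embryos, 1.66-fold higher (1.58 to 1.74, log2 ratio 0.73). The ratio of gadd45bb to gadd45ba was 1.10 in treated and 0.970 in control embryos, which is 1.13 times as high in treated embryos. The counting interval of 1.06 to 1.21 leaves out variation between pools. Whether the paralogs differ in their response was therefore not tested.

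The gadd45aa gene (ENSDARG00000043581) is one zebrafish counterpart of the human p53 target GADD45A. It was scarce, with a mean of 28.2 in treated and 12.7 in control embryos, from 113 normalised reads over the treated and 51 over the control pools. Its ratio of 2.21 (log2 ratio 1.15) therefore has a wide counting interval of 1.58 to 3.15.

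The other gadd45 genes were not higher past the fold. The sister paralog gadd45ab was lower, at 28.1 in treated and 47.8 in control embryos (ratio 0.588, interval 0.460 to 0.744). The gadd45gb.1 gene had the lowest ratio of the family, with 18.2 in treated and 65.1 in control embryos (ratio 0.280, interval 0.214 to 0.365), and gadd45ga stayed within 1.5-fold at 961 in treated and 890 in control embryos. Of the 6 family genes, 3 (50%) were thus higher, 2 (33.3%) lower and 1 inside the fold, with gadd45aa and gadd45ab on opposite sides. Among all genes tested, 15.3% were higher and 16.3% lower. With the whole counting interval beyond the fold, 3 (50%) were higher and 1 (16.7%), gadd45gb.1, was lower. Over all genes tested, these shares were 9.54% and 9.63%. The scarce gadd45ab was then not called lower. The summed mean of the 6 family genes was 3533 in treated and 2431 in control embryos.

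**Figure D2:**
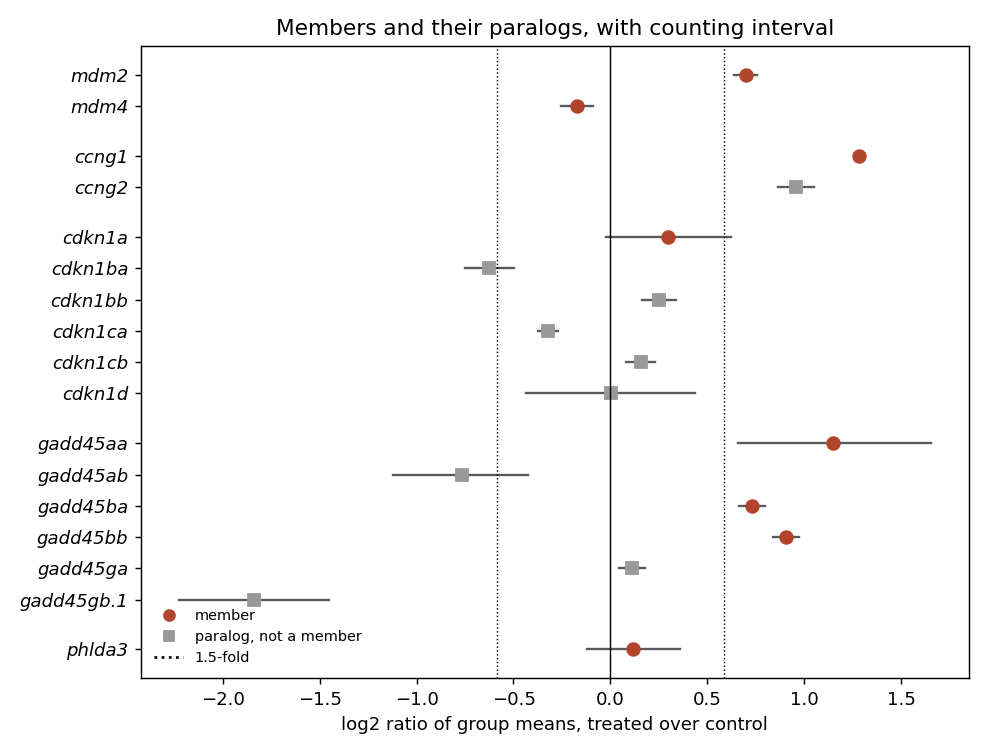
Log2 ratio of the treated to the control group mean for the 8 genes (red circles) and their paralogs (grey squares), with the 95% counting interval as a bar and dotted lines at 1.5-fold. Members lie right of the upper line for mdm2, ccng1, gadd45aa, gadd45ba and gadd45bb, while gadd45ab, gadd45gb.1 and cdkn1ba lie left of the lower line.

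The last of the 8 genes, phlda3 (ENSDARG00000037804), encodes a small membrane-binding protein that in mammals is induced by p53 and restrains the survival kinase Akt. It had a mean of 75.4 in treated and 69.6 in control embryos, from 302 normalised reads over the treated and 278 over the control pools. The ratio of 1.08 has a counting interval of 0.920 to 1.28, which lies below 1.5-fold.

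**Figure D3:**
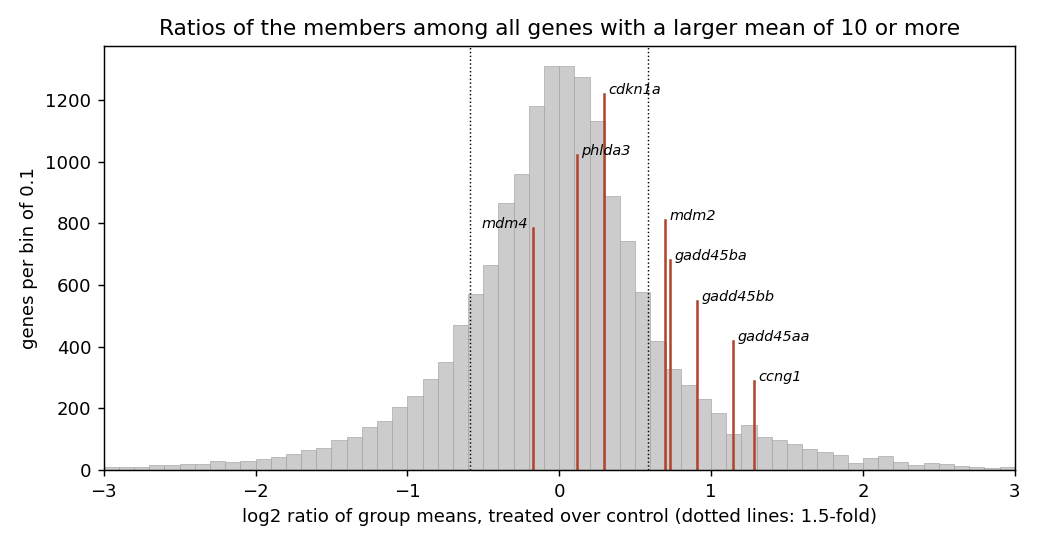
Number of genes in bins of 0.1 of the log2 ratio of treated to control means, for genes whose larger mean is at least 10, with the 8 genes as red lines whose height carries no value and 129 genes beyond the axis left out. The lines of mdm4 (-0.17), phlda3 (0.12) and cdkn1a (0.30) fall in the bulk of the genes, and those of the other 5 lie right of the dotted line at 1.5-fold, up to ccng1 at 1.28.

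Of 54 other regulators, family genes and targets in 5 lists that reached a mean of 10, 8 (14.8%) were higher and 7 (13.0%) lower past 1.5-fold, beside 15.3% higher and 16.3% lower among all genes tested. Their median log2 ratio was 0.01, the same as over all genes.

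Among 16 other targets that act in cell death, 5 (31.2%) were higher and 2 (12.5%) lower past 1.5-fold, beside the same 15.3% and 16.3% of all genes tested. With the whole counting interval beyond the fold, 3 were higher (tp53inp1, rps27l and zmat3), beside 9.54% of all genes tested. The highest ratio among those with a mean of 50 or more was that of tp53inp1, a stress-induced gene of cell death and autophagy, at 141 in treated and 63.3 in control embryos (2.22-fold, interval 1.91 to 2.59). The small ribosomal protein gene rps27l had 234 in treated and 137 in control embryos (1.71-fold, interval 1.54 to 1.90). The gene casp8, the initiator caspase of death receptors, had 65.9 in treated and 38.8 in control embryos (1.70-fold, interval 1.39 to 2.08). The other higher ones were apaf1, the scaffold on which caspase-9 is activated, at 431 in treated and 278 in control embryos (1.55-fold, interval 1.43 to 1.67), and zmat3, an RNA-binding zinc finger gene, at 20.3 in treated and 8.65 in control embryos (2.35-fold, interval 1.54 to 3.55). Lower past the fold were pidd1, an adaptor that activates caspases, at 28.2 in treated and 53.8 in control embryos, and the receptor gene tnfrsf1a, at 10.9 in treated and 29.0 in control embryos. Inside 1.5-fold were bbc3 (Puma), pmaip1 (Noxa) and baxa (Bax), with log2 ratios of -0.39 for bbc3, 0.40 for pmaip1 and -0.55 for baxa.

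Listed as targets of repair and metabolism were 16 genes that reached a mean of 10. Of these, 1 (6.25%) was higher and 2 (12.5%) lower past 1.5-fold, beside 15.3% and 16.3% of all genes tested. The higher one was the sestrin gene sesn3, which dampens mTORC1 under stress, with 12547 in treated and 6013 in control embryos (2.09-fold, interval 2.05 to 2.12). Its place in the list does not show that p53 acts on sesn3 in these embryos, which was not tested. The paralog sesn2 was lower, at 149 in treated and 232 in control embryos (ratio 0.641, interval 0.577 to 0.711). Also lower was prkab1b, a subunit of the energy sensor AMPK, at 167 in treated and 334 in control embryos (ratio 0.500, interval 0.455 to 0.549). With the whole counting interval beyond the fold, 1 (6.25%) was higher, sesn3, and 1 (6.25%) lower, prkab1b. Over all genes tested, these shares were 9.54% and 9.63%. Another listed sestrin gene, sesn1, stayed inside 1.5-fold, at 168 in treated and 190 in control embryos (ratio 0.883). The repair genes xpc and ddb2 and the nucleotide reductase gene rrm2b, classical p53 targets, had log2 ratios of -0.02, -0.16 and -0.01.

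Of 22 genes listed for DNA damage sensing, damage signalling and checkpoint kinases, 0 were higher and 3 (13.6%) lower past 1.5-fold, beside 15.3% higher and 16.3% lower among all genes tested. By direction alone, 5 had a higher and 17 a lower mean in treated embryos. Their median log2 ratio was -0.23, beside 0.01 over all genes tested. Where the whole counting interval had to pass the fold, 1 (4.55%), atr, was lower, beside 9.63% of all genes tested. Where means were divided by their group's sum, 5 (22.7%) were lower, beside 18.6% of all genes tested. The kinase gene atr, which answers to stalled replication, had 67.1 in treated and 173 in control embryos (ratio 0.387, interval 0.334 to 0.445). The kinase gene atm had 76.9 in treated and 122 in control embryos (ratio 0.629, interval 0.544 to 0.728). The histone gene h2ax had 44.3 in treated and 72.2 in control embryos (ratio 0.614, interval 0.505 to 0.741). The checkpoint kinase gene chek1 had a ratio of 0.671 and stayed just inside the fold. Of 27 DNA repair genes, 0 were higher and 6 (22.2%) lower past 1.5-fold, with a median of -0.14. With the whole counting interval beyond the fold, 3 (11.1%) were lower, beside 9.63% of all genes tested. These 3 were msh6, pms2 and fancd2. The 6 include fancd2 of crosslink repair, at 58.6 in treated and 124 in control embryos, and msh6, at 658 in treated and 1168 in control embryos. The recombination gene xrcc3, also one of the 6, had 85.4 in treated and 141 in control embryos (ratio 0.606, interval 0.529 to 0.695).

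**Figure D4:**
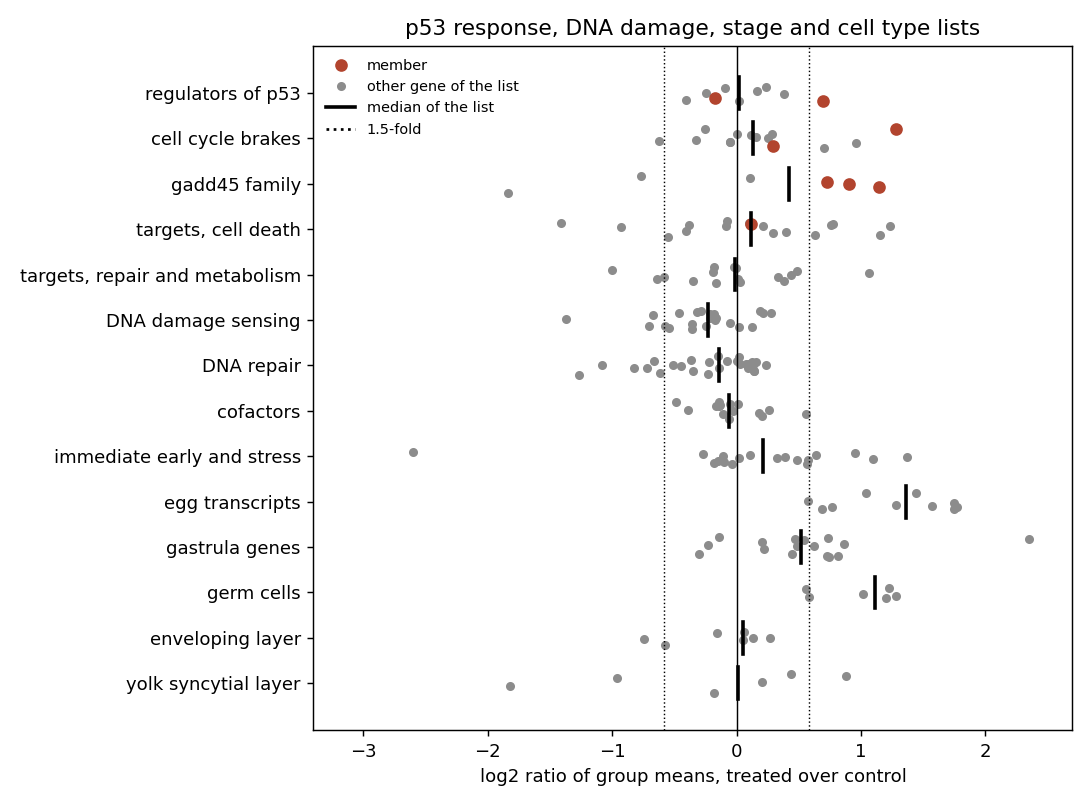
Log2 ratio of treated to control means for each gene of 14 lists whose larger mean is at least 10, with the 8 genes in red, other genes in grey, the median of each list as a black bar and dotted lines at 1.5-fold; the vertical scatter within a list has no meaning. Medians of the p53 and DNA damage lists lie between -0.23 and 0.42, and that of the egg transcripts at 1.36.

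Markers of stage and of cell types were read beside these values. All 10 egg transcripts had a higher mean in treated embryos, 9 of them (90%) past 1.5-fold, beside 15.3% of all genes tested. Their median log2 ratio was 1.36, and their summed mean 11015 in treated and 6300 in control embryos. Most of that sum was the cyclin gene ccnb1, at 8693 in treated and 5398 in control embryos (1.61-fold). Other egg transcripts were cth1 (204 in treated and 60.7 in control embryos), cldnd (61.8 in treated and 18.1 in control embryos), buc (54.4 in treated and 20.0 in control embryos) and the linker histone gene h1m (1084 in treated and 365 in control embryos). All 6 germ cell markers, of which ca15b is also one of the egg transcripts and enters both sums, also had a higher mean, 4 past 1.5-fold, with a summed mean of 3487 in treated and 1643 in control embryos and ddx4, the vasa gene, at 2309 in treated and 1004 in control embryos. Whether a larger share of egg-supplied RNA takes part in the higher means of ccng1, mdm2 and the gadd45 genes was not tested.

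The samples are labelled as whole larvae, and genes of the gastrula were present in both groups. All 16 gastrula genes reached a mean of 10, with 13 means higher and 3 lower in treated embryos. Their median log2 ratio was 0.51, beside 0.01 over all genes tested. Past 1.5-fold, 7 (43.8%) were higher and 0 lower, beside 15.3% and 16.3% of all genes tested. The higher ones include tbxta of the mesoderm (9804 in treated and 5375 in control embryos) and mixl1 of the mesendoderm (591 in treated and 116 in control embryos). The 3 lower means, all inside the fold, were those of chrd (ratio 0.909), sox17 (0.854) and foxa2 (0.812). The 7 markers of the enveloping layer, the outer epithelium, had a summed mean of 207974 in treated and 203187 in control embryos, and 1 of them, anxa1c, was lower past 1.5-fold. Of 7 markers of the yolk syncytial layer 6 reached a mean of 10, and ttr was near 0 in both groups. Past 1.5-fold, 1 of the 6 (16.7%) was higher and 2 (33.3%) lower, beside 15.3% and 16.3% of all genes tested. With the whole counting interval beyond the fold, 0 were higher and 2 (33.3%) lower, beside 9.54% and 9.63% of all genes tested. The 7 had a summed mean of 21755 in treated and 26249 in control embryos. Means were lower for apoa1b (14902 in treated and 16900 in control embryos), apobb.1 (3446 in treated and 6711 in control embryos) and apoa4b.1. They were higher for hnf4a (2669 in treated and 1966 in control embryos), mxtx1 and mxtx2. Of these, mxtx2 was the gene past 1.5-fold and was scarce, at 10.4 in treated and 5.68 in control embryos (interval 1.07 to 3.18). In whole embryos, fewer cells of a type and less RNA per cell cannot be told apart.

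Genes with the most similar pair of group means were looked up for the 5 higher genes among genes with a symbol, by the distance between their log2 means. A pair of means carries little of a pattern, so these are descriptions only. Nearest to ccng1 came sesn3 at a distance of 0.30, followed by the actin bundling gene fscn1a (0.33) and the lipid transfer gene mttp (0.35). Nearest to mdm2 came the B-type cyclin gene ccnb3 (0.02), kalrnb (0.03) and nap1l4a (0.06). The volume-regulated channel gene lrrc8aa was near both gadd45bb (0.05) and gadd45ba (0.09), the clock gene per3 was near gadd45bb (0.10), and MAP3K13 was nearest to gadd45aa (0.02).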

How the data were processed

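Reads of stranded mRNA libraries, sequenced over 100 bp in a single direction, were processed by the authors with version 3.0 of the nf-core rnaseq workflow (genome GRCz11, annotation of Ensembl release 103), and the authors compared the groups with DESeq2, whose version is not given in the sources used here. The signal values used are the authors' means, in the deposited table, of counts divided by size factors over the treated, the control or all pools. Its columns of p-value, adjusted p-value, log2 fold change, standard error and Wald statistic hold the comparison made by the authors and were not used. The table gives no counts per pool to work from, so the planned fit of a count model was not run.

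The log2 ratio of the treated to the control mean was computed here across all genes, with an exact conditional binomial interval at 95% on 4 times each mean, which treats size factors as 1. Intervals for a ratio of ratios are normal approximations. These steps were tested on simulated data that held counting error but no variation between pools. The simulation therefore cannot show how the interval fares where pools vary. Levels of different genes were not ranked, since transcript lengths were not used.

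The 8 genes and 14 lists (201 symbols, of which 194 were found by symbol, 1 by a RefSeq synonym of assembly GRCz12tu and 6 not at all) were chosen with earlier results of these data known. Where a symbol had several rows, the one with the largest mean was taken. Named from a list were up to 4 genes with the largest absolute log2 ratio and a mean of at least 50, and genes past 1.5-fold against the list's direction; not every such gene is reported here. For genes past 1.5-fold the 3 nearest by log2 means were looked up. Further genes were added with their values in view, as known p53 targets or family members. Alternatives were folds of 1.3 and 2, other minimum means, 1 added to both means, other scalings, the whole interval beyond 1.5-fold and sums over rows. The software was scipy 1.17.1, numpy 2.4.6 and pandas 2.3.3 in Python 3.11.15, with matplotlib 3.10.9 for plots.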

Additional observations from a re-analysis of the deposited data

How the results depend on the processing

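Of the 8 genes, 5 were higher under 7 of 9 alternatives. When a mean of 50 was required, 4 of the 6 genes left (66.7%) were higher, beside 11.8% of all genes. At a 2-fold threshold 2 (25%) were higher, ccng1 and gadd45aa, beside 7.25% of all genes. The count of lower genes was 0 under all 9. None of the 24 log2 ratios of these genes under other scalings or with 1 added changed sign, and 22 stayed within the counting interval. Dividing by the group sums took mdm2 to 1.55-fold. Over all genes, the higher ones numbered 3937 (23.8%) at 1.3-fold and 1198 (7.25%) at 2-fold. They numbered 6107 of 26166 (23.3%) with no minimum mean and 1434 of 12122 (11.8%) with a mean of 50. With the whole counting interval beyond 1.5-fold they were 1577 (9.54%), and with means divided by their group's sum 2229 (13.5%). The lower ones numbered 1258 (7.61%) at 2-fold, 5671 (21.7%) with no minimum and 1590 (13.1%) with a mean of 50. They were 1592 (9.63%) with the interval and 3082 (18.6%) with means divided by their group's sum. Of 224 counts of list genes, 44 moved by more than 1.5 times.

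No paired analysis was possible because the values used are means over a group, and for the same reason no pool was left out in turn. Depth limits the scarce genes most: the counting interval of gadd45aa spans 1.58 to 3.15 and that of cdkn1a 0.984 to 1.54.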

Other observations

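The gadd45 genes share inputs with the immediate early and stress kinase genes, so 18 of these that reached a mean of 10 were read beside them. Of these, 4 (22.2%) were higher and 1 (5.56%) was lower past 1.5-fold, beside 15.3% higher and 16.3% lower among all genes tested, with a median log2 ratio of 0.21. With a minimum mean of 50, 2 (14.3%) were higher, nfkbiaa and ier2b, beside 11.8% of all genes tested so. Where the whole counting interval had to pass the fold, 2 (11.1%) were higher, beside 9.54% of all genes tested. These were nfkbiaa and the scarce dusp2, at 12.5 in treated and 4.81 in control embryos. Higher was nfkbiaa, a feedback inhibitor of NF-kappa B, at 236 in treated and 122 in control embryos (1.93-fold, counting interval 1.73 to 2.16), while its paralog nfkbiab was just inside the fold at 1.49. The immediate early gene ier2b had 96.4 in treated and 61.9 in control embryos (1.56-fold, counting interval 1.33 to 1.84). The lower one was klf2a, a transcription factor, at 178 in treated and 1078 in control embryos (ratio 0.165, counting interval 0.152 to 0.179). The early genes jun, fosab and atf3 had log2 ratios of 0.10, 0.39 and 0.49, and the gene of the Gadd45 partner map3k4 had -0.18.

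Of 15 cofactors of p53 and ribosomal stress genes, 0 passed 1.5-fold in either direction, beside 15.3% higher and 16.3% lower among all genes tested. The median log2 ratio of the 15 genes was -0.06. The acetyltransferase gene kat2b came nearest, at 82.1 in treated and 55.7 in control embryos (1.47-fold, counting interval 1.24 to 1.75). The ribosomal protein gene rpl5a, whose product can bind Mdm2 when ribosome assembly fails, had 4334 in treated and 6069 in control embryos (ratio 0.714), its paralog rpl5b a log2 ratio of 0.02 and rpl11 one of -0.16.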
